A study of Mus musculus with 11 samples.

Results

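The imprinted Dlk1-Meg3 domain of mouse chromosome 12 was described through its open chromatin in embryonic stem (ES) cells. The domain was taken as every accessible region of the deposited count table that starts within the window of chromosome 12 holding Dlk1, Meg3, Rian and Mirg, which gave 34 of 248336 regions. All 34 passed the filter on low counts that left 246840 regions for testing. The regions are numbered 1 to 34 in genome order, from upstream of Dlk1 to downstream of Mirg.

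The assay was ATAC-seq, in which a transposase inserts sequencing adapters where DNA is not covered by nucleosomes, so that read counts report how open a stretch of chromatin is. There were 11 libraries from 4 lines of mouse ES cells, each line of 1 genotype. B6 was cell line B6 5-1 of strain C57BL/6J (3 libraries), and D2 was cell line D2 5-5 of strain DBA/2J (3 libraries). B6-13D2 was cell line QJ 6-1 of strain B6.D2-(rs30079041-rs51756099)/Bakr, with a DBA/2J interval on the C57BL/6J background (2 libraries). D2-13B6 was cell line XE 2-4 with a C57BL/6J interval on the DBA/2J background (3 libraries), labelled D2.B6-(rs29224292-rs13469455)/Bakr for the samples and D2.B6-(rs29224292-rs51756099)/Bakr in the series' design text. The strain designations place the exchanged interval on chromosome 13, so the Dlk1-Meg3 domain lies on another chromosome. All lines were grown in serum with leukaemia inhibitory factor, PD0325901 (a MEK inhibitor) and CHIR99021 (a GSK3 inhibitor). The labels call the libraries of a line technical replicates. Every SD below therefore covers variation among libraries of 1 line. Every SE and p-value rests on such variation in a fit that shares its estimate between lines. A difference between 2 genotypes cannot be told apart from a difference between 2 cell lines.

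Imprinted genes are expressed from the copy inherited from only 1 parent. In this domain Dlk1 (a transmembrane ligand-like protein that restrains differentiation) and Rtl1 (a retrotransposon-derived protein needed in the placenta) are expressed from the paternal copy, while Meg3 (also called Gtl2), Rian and Mirg are long noncoding RNAs of the maternal copy that also carry many microRNAs and small nucleolar RNAs. A germline control region between Dlk1 and Meg3 is methylated on the paternal copy and unmethylated on the maternal copy. ZFP57 binds the methylated copy at TGCCGC and recruits TRIM28 to keep the mark. In cultured ES cells the maternal genes are known to be silenced in some lines and active in others. The lines here come from inbred strains, so the counts join both parental copies and say nothing about either alone.

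Total counts ran from 15198496 to 43042955 per library, and the 34 regions together held 1721 to 6277 counts. Counts were expressed as normalised CPM, counts divided by the library's total and scaled to 1000000 after scaling libraries by trimmed mean of M-values (TMM) factors, which ran from 0.769 to 1.10. The lowest factor belonged to replicate 2 of D2-13B6. The most accessible 10% of all regions held 46.2% to 47.1% of the counts in B6 libraries, 48.3% to 53.7% in D2-13B6 and 49.9% to 52.3% in D2. ES cell markers were open in all lines: all 10 promoters on that list had a region, with at least 123 counts in every library.

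The regions covered the domain unevenly (GRCm38, the build the submitters name as mm10). Region 3 (chr12:109452596-109454071) covered the start of Dlk1 and was the only region in that gene. By their midpoints, 2 regions lay upstream of Dlk1, 8 between Dlk1 and Meg3 (with region 11, which spans the Meg3 start), 5 in Meg3, 2 between Meg3 and Rian, 5 in Rian, 9 between Rian and Mirg and 2 after Mirg. No region lay in Mirg, and none lay within 1000 bp of an annotated start of Rtl1, Rian or Mirg. The median region was 498.5 bp wide with 54.5% G and C in its central 300 bp, against 547.0 bp and 49.0% over all regions. The plot of accessibility along the domain gives every region in the 4 lines.

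**Figure D1:**
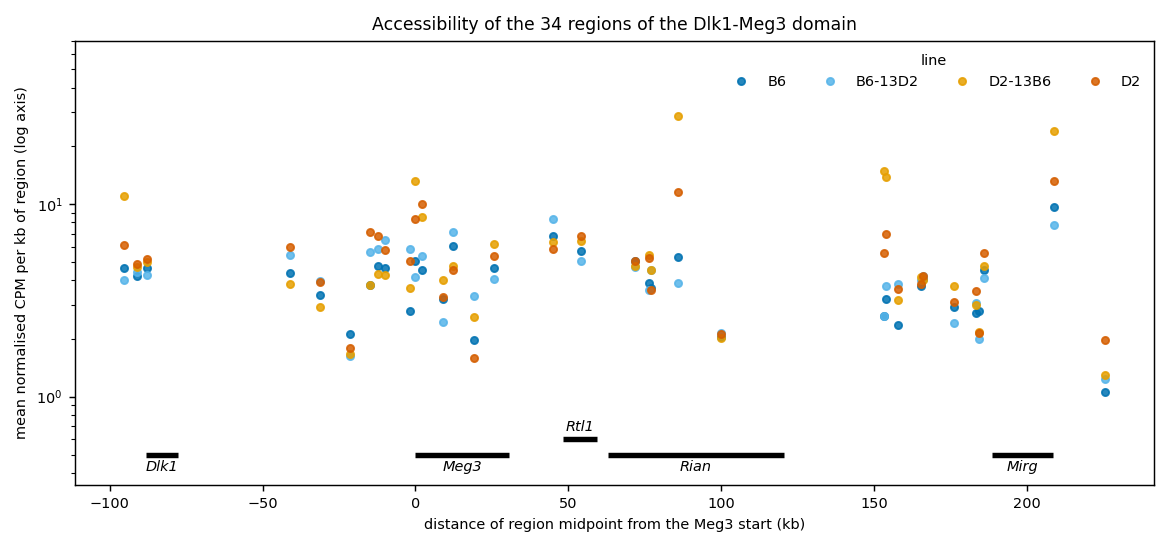
Mean normalised CPM per kb of region (log axis) for the 34 regions in the 4 lines, against the distance of the region's midpoint from the Meg3 start in kb; black bars mark the genes. Region 22 in Rian reached 28.4 per kb in D2-13B6 and region 33 after Mirg reached 23.8, while the region at the Dlk1 start stayed between 4.29 and 5.17 in all lines.

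The sequences below are a choice from regions described further on, with the letters of searched motifs in capitals, read on the plus strand of GRCm38; no sequence was tested as the source of a difference. The Meg3 promoter (RefSeq, GRCm38.p6, chr12:109540746-109541045) is shown because region 11 covers it. It holds TGACGTCA, the palindromic cAMP response element bound by CREB and ATF proteins, and TGCCGC on the minus strand.
Meg3 promoter: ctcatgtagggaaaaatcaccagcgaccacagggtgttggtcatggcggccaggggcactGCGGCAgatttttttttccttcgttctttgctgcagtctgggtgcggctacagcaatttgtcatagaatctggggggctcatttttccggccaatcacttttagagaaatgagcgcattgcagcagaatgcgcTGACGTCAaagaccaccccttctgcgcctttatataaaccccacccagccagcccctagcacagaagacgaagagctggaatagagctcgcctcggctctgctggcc

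Region 8 (chr12:109527185-109530645), between Dlk1 and Meg3, is shown by the 300 bases of it with the most TGCCGC letters (chr12:109528145-109528444, 5 matches, in capitals). The whole region holds 8 matches on both strands and 100 CpG sites. Among 1485 regions within 10% of its width, 57.7% held any TGCCGC, the median number was 1 and 0.943% held as many.
Region 8 window: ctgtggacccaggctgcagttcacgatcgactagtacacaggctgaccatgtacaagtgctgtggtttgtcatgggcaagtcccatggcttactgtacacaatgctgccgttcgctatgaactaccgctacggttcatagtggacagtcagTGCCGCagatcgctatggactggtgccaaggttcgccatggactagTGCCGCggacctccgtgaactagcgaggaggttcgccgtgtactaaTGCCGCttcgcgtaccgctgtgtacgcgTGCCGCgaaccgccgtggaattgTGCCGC

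Regions 22, 24, 25 and 33 were the regions downstream of Meg3 that were called higher in D2-13B6 than in B6, and region 10 was the single region called between B6-13D2 and B6. Their central 300 bases follow. Capitals mark TGANTCA (the AP-1 site of FOS and JUN proteins), TGACGT (the core of the cAMP response element), TGCCGC and AGGNGGC (a core of the CTCF motif) on both strands. TGANTCA was added to the search after the sequences had been read.
Region 22 (chr12:109626906-109627205): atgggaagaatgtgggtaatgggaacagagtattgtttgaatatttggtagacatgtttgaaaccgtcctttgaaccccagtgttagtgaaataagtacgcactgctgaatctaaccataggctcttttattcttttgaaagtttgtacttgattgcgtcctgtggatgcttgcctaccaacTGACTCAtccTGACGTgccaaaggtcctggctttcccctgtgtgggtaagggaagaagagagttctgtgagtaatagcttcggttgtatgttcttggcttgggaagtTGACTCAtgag
Region 24 (chr12:109694155-109694454): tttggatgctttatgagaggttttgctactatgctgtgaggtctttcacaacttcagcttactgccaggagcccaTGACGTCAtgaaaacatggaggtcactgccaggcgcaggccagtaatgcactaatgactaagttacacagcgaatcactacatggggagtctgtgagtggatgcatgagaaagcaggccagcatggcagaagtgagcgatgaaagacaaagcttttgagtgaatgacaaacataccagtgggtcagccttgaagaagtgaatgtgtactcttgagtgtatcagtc
Region 25 (chr12:109694803-109695102): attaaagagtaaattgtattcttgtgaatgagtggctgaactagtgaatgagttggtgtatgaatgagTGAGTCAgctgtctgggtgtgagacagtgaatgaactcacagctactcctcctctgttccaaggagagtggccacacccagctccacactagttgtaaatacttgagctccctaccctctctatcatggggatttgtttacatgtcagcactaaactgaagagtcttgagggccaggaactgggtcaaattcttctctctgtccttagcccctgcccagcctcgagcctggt
Region 33 (chr12:109749821-109750120): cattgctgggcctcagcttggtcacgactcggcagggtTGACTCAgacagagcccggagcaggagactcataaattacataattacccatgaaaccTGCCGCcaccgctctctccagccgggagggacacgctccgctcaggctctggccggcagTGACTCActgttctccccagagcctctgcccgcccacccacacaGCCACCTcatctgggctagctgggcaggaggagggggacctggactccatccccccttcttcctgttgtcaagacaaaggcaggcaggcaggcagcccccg
Region 10 (chr12:109539106-109539405): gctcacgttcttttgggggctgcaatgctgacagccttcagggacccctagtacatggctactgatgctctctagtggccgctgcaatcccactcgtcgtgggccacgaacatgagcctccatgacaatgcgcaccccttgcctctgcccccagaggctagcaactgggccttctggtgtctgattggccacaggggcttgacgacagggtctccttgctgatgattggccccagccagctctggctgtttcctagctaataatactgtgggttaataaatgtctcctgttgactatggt

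Dlk1 showed an even accessibility in the 4 lines. Region 3, a CpG-rich region at its start with 64.5% G and C and 115 CpG sites, read 8.05, 6.28 and 6.22 normalised CPM in B6 and 6.69 and 5.98 in B6-13D2. It read 7.04, 7.09 and 7.98 in D2-13B6 and 8.74, 7.12 and 6.99 in D2. The lines overlapped. The log2 fold changes of the 5 pairwise comparisons ran from −0.12 ± 0.20 (B6-13D2 against B6) to 0.27 ± 0.20 (D2 against B6-13D2; SE, edgeR), and none was called at an adjusted p below 0.05.

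Region 1 (chr12:109445071-109446477), intergenic and 6346 bp upstream of the Dlk1 start, was open above all in D2-13B6. It read 5.26, 7.14 and 7.14 normalised CPM in B6 and 5.09 and 6.28 in B6-13D2. In D2-13B6 it read 12.2, 19.5 and 14.4, and in D2 9.05, 9.16 and 7.65. The D2-13B6 libraries lay above all others, and the D2 libraries above those of B6 and B6-13D2. Region 1 rose in D2-13B6 against B6 by a log2 fold change of 1.25 ± 0.18 (SE, edgeR adjusted p = 2.6e-08) and fell in D2 against D2-13B6 by 0.83 on the log2 scale (adjusted p = 0.000117). In D2 against B6-13D2 it gave 0.60 ± 0.21 (adjusted p = 0.0327), a call lost under DESeq2 (adjusted p = 0.0646) and without B6-13D2 replicate 1 (0.46, adjusted p = 0.335), B6-13D2 replicate 2 (0.76, adjusted p = 0.076) or D2 replicate 1 (0.57, adjusted p = 0.10). D2 against B6 gave 0.42 ± 0.18 for region 1 (edgeR adjusted p = 0.092), not called. It was called in a fit of only the libraries compared (0.42, adjusted p = 0.0268) and without D2-13B6 replicate 2 (0.42, adjusted p = 0.0345). Region 2, between region 1 and Dlk1, was called in none of the comparisons.

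Between Dlk1 and Meg3, regions 4, 7 and 8 were highest in D2. Region 8 was the widest member at 3460 bp and had the highest mean normalised CPM over the lines, although region 33 had more counts in each D2-13B6 library. Per kb, region 8 lay at 4.31 to 6.83 normalised CPM per kb in the line means. It read 15.5, 16.0 and 17.6 normalised CPM in B6, 19.7 and 20.4 in B6-13D2, 13.3, 17.3 and 14 in D2-13B6, and 24.9, 22.4 and 23.7 in D2. The D2 libraries lay above all others, the B6-13D2 libraries above those of B6 and D2-13B6, and the latter overlapped. Region 8 rose in D2 against D2-13B6 by 0.67 ± 0.16 (log2, SE, edgeR adjusted p = 0.00107) and in D2 against B6 by 0.53 ± 0.16 (adjusted p = 0.0121). The D2 against B6 call was lost without D2 replicate 1 (adjusted p = 0.0617), B6 replicate 1 (0.0796) or B6 replicate 2 (0.0562).

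Region 7 (chr12:109525470-109526964), next to region 8, also had its highest line mean in D2 and the next in B6-13D2, with B6 and D2-13B6 level below. Its values were 6.45, 5.12 and 5.43 normalised CPM in B6, 7.91 and 8.92 in B6-13D2, 4.88, 5.73 and 6.47 in D2-13B6, and 12.4, 10.7 and 8.94 in D2. Each D2 library lay above each B6 and D2-13B6 library, and the lowest D2 library was level with the higher B6-13D2 library. The rise was 0.91 ± 0.18 in D2 against B6 (log2, SE, edgeR adjusted p = 6.19e-05) and 0.91 ± 0.17 in D2 against D2-13B6 (adjusted p = 2.53e-05). In B6-13D2 against B6 the value was 0.56 ± 0.20 (adjusted p = 0.35).

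Region 4 (chr12:109499567-109500715), in an intron of the noncoding gene Gm34081, read 5.76, 5.18 and 4.11 normalised CPM in B6 and 5.82 and 6.68 in B6-13D2. It read 3.66, 4.82 and 4.68 in D2-13B6 and 7.52, 6.59 and 6.45 in D2. D2 and D2-13B6 did not overlap, and the difference was 0.65 ± 0.18 (log2, SE, edgeR adjusted p = 0.00441). That call was lost without D2-13B6 replicate 1 (0.53, adjusted p = 0.0525). D2 against B6 gave 0.45 ± 0.18 (adjusted p = 0.070), not called. It was called in a fit of only the libraries compared (0.44, adjusted p = 0.0279) and without D2 replicate 2 (0.54, adjusted p = 0.0375). The same held without D2-13B6 replicate 2 (0.44, adjusted p = 0.0355) or D2-13B6 replicate 3 (0.45, adjusted p = 0.0485).

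Region 10 (chr12:109538597-109539913), whose near edge lies 1088 bp upstream of the Meg3 start, was the only one of the 34 regions called in B6-13D2 against B6. It read 3.56, 3.17 and 4.25 normalised CPM in B6 and 7.46 and 7.82 in B6-13D2. In D2-13B6 it read 4.94, 5.61 and 3.96, and in D2 6.93, 5.46 and 7.56. The B6-13D2 libraries lay above every B6 and D2-13B6 library, and only D2-13B6 overlapped with both B6 and D2. Region 10 rose in B6-13D2 against B6 by 1.05 ± 0.21 (log2, SE, edgeR adjusted p = 0.00271) and in D2 against B6 by 0.85 ± 0.19 (adjusted p = 0.000433). D2 against D2-13B6 gave 0.46 ± 0.18 (adjusted p = 0.056), a value that passed the threshold without D2 replicate 2 (0.64, adjusted p = 0.0075) or D2-13B6 replicate 2 (0.57, adjusted p = 0.0169), under total counts (0.64, adjusted p = 0.0020) and with a replicate block (0.45, adjusted p = 0.0469).

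The Meg3 start was more open in both lines of D2 background. Region 11 (chr12:109540731-109541235), which covers the annotated start and the promoter printed above, read 2.76, 3.05 and 1.84 normalised CPM in B6 and 2.18 and 2.04 in B6-13D2. It read 7.43, 7.06 and 5.40 in D2-13B6 and 4.75, 3.64 and 4.18 in D2. The 3 levels did not overlap: D2-13B6 was highest, D2 next, and B6 and B6-13D2 lowest together. The means were 6.63 ± 1.08 in D2-13B6, 4.19 ± 0.553 in D2 and 2.55 ± 0.633 in B6 (SD, n = 3 libraries each). Region 11 rose by 1.39 ± 0.21 in D2-13B6 against B6 (log2, SE, edgeR adjusted p = 5.29e-08), by 0.73 ± 0.21 in D2 against B6 (adjusted p = 0.0071) and by 0.99 ± 0.25 in D2 against B6-13D2 (adjusted p = 0.0023), and fell by 0.66 on the log2 scale in D2 against D2-13B6 (adjusted p = 0.0056). The D2 against B6 call was lost without B6 replicate 3 (0.54, adjusted p = 0.109) or D2 replicate 1 (0.63, adjusted p = 0.0584), the D2 against B6-13D2 call without B6-13D2 replicate 2 (0.94, adjusted p = 0.0518), and the D2 against D2-13B6 call without D2 replicate 2 (−0.52, adjusted p = 0.0611).

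Region 12 (chr12:109542544-109544105), over an exon of Meg3, was also higher in the lines of D2 background, but 1 library stood apart. It covers no annotated start. The nearest, of Gm27300, lies 234 bp away, and an internal start of Meg3 lies within 1000 bp. The central 300 bases of the region are almost only C and T, with 0 CpG sites, and 33.7% of the whole region is masked as repeats. The part of such sequence in the counts was not tested. Region 12 read 8.05, 5.79 and 7.35 normalised CPM in B6, 8.37 and 8.37 in B6-13D2, and 14.5, 12.3 and 19.6 in D2. The D2-13B6 libraries read 16.2, 15.8 and 7.81. Replicate 3 of D2-13B6 lay within the range of B6 and the other two within that of D2. Region 12 rose by 1.12 ± 0.19 in D2 against B6 (log2, SE, edgeR adjusted p = 8.67e-06), by 0.89 ± 0.22 in D2 against B6-13D2 (adjusted p = 0.0021) and by 0.90 ± 0.20 in D2-13B6 against B6 (adjusted p = 0.0001). Under scaling by total counts the last value was 0.58.

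Of the other regions of Meg3, 1 was called. Region 13 (chr12:109549980-109550341), within 1000 bp of an internal start, ranged from 0.864 to 2.06 normalised CPM over the 11 libraries and was called in no comparison. Region 15 (chr12:109560056-109560516) read 0.665, 1.16 and 0.875 in B6, 1.27 and 1.79 in B6-13D2, 1.07, 1.21 and 1.31 in D2-13B6, and 0.649, 0.803 and 0.745 in D2. The B6-13D2 and D2-13B6 libraries lay above those of D2, and B6 overlapped with all the other lines but B6-13D2. Region 15 fell in D2 against B6-13D2 by 1.06 on the log2 scale (SE 0.35, edgeR adjusted p = 0.0256). That call was lost without B6-13D2 replicate 2 (−0.80, adjusted p = 0.309), D2 replicate 1 (−0.98, adjusted p = 0.0856) or D2 replicate 2 (−1.07, adjusted p = 0.055).

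The stretch of Rtl1, whose antisense microRNAs come from the maternal copy, had 1 region over the gene. Region 18 (chr12:109594880-109595434) covers part of the Rtl1 exon and the hairpins of miR-432, miR-3071 and miR-136. It read 2.58 to 4.79 normalised CPM over the 11 libraries, the lines overlapped, and no comparison was called. Of the 57 hairpin entries of the RefSeq microRNA table in the domain window, 7 overlapped a region (regions 17, 18, 29, 30 and 32), and by GENCODE region 29 also overlaps Mir666. None of those 5 regions was called in a pairwise comparison, where 49.6% of all tested regions were called in at least 1 of the 5 and 0.474% to 41.7% in each, so 5 regions say little.

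In Rian, intronic region 19 (chr12:109612477-109613401) had the highest mean normalised CPM of the gene over the line means. It read 3.90 to 5.12 normalised CPM in all 11 libraries and was not called in any comparison. Region 22 (chr12:109626890-109627221), over a Rian exon, differed. It read 1.80, 1.65 and 1.84 in B6 and 1.27 and 1.30 in B6-13D2. In D2 it read 3.68, 3.86 and 3.87, and in D2-13B6 9.25, 12.4 and 6.50. The 4 lines did not overlap, in the order D2-13B6, D2, B6 and B6-13D2. Region 22 rose by 2.41 ± 0.22 in D2-13B6 against B6 (log2, SE, edgeR adjusted p = 3.73e-15), by 1.10 ± 0.22 in D2 against B6 (adjusted p = 0.000102) and by 1.56 ± 0.27 in D2 against B6-13D2 (adjusted p = 1.18e-05), and fell by 1.31 on the log2 scale in D2 against D2-13B6 (adjusted p = 1.75e-07). B6-13D2 against B6 gave −0.46 ± 0.30 (adjusted p = 0.80).

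Regions 24 and 25, a pair just upstream of the noncoding gene B830012L14Rik between Rian and Mirg, showed the same order of the 2 lines of D2 background. Region 24 (chr12:109694019-109694589) read 1.63, 1.22 and 1.62 normalised CPM in B6, 2.00 and 0.997 in B6-13D2, 7.01, 11.6 and 6.53 in D2-13B6, and 3.27, 3.16 and 3.07 in D2. B6 and B6-13D2 overlapped, D2 lay above both, and D2-13B6 lay above D2. It rose by 2.47 ± 0.23 in D2-13B6 against B6 (log2, SE, edgeR adjusted p = 2.05e-14) and by 1.06 ± 0.24 in D2 against B6 (adjusted p = 0.000519), and fell by 1.41 on the log2 scale in D2 against D2-13B6 (adjusted p = 1.51e-07). D2 against B6-13D2 gave 1.06 ± 0.28 (adjusted p = 0.0036), which was 0.66 (adjusted p = 0.234) without B6-13D2 replicate 2.

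Region 25 (chr12:109694699-109695206) read 1.76, 1.89 and 1.23 normalised CPM in B6, 1.55 and 2.24 in B6-13D2, 5.97, 9.55 and 5.37 in D2-13B6, and 3.76, 3.45 and 3.32 in D2. The lines fell in the same 3 levels as for region 24. The rise was 2.10 ± 0.23 in D2-13B6 against B6 (log2, SE, edgeR adjusted p = 3.88e-12) and 1.12 ± 0.23 in D2 against B6 (adjusted p = 0.000182). It was 0.90 ± 0.27 in D2 against B6-13D2 (adjusted p = 0.0105), a call lost without B6-13D2 replicate 1 (0.65, adjusted p = 0.245).

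Past the end of Mirg, region 33 (chr12:109749498-109750442) was the region with the highest mean per kb over the lines, 13.5 normalised CPM per kb. It read 9.48, 8.54 and 9.19 normalised CPM in B6 and 6.32 and 8.37 in B6-13D2. In D2-13B6 it read 18.9, 29.8 and 18.6, and in D2 13.5, 12.9 and 10.5. D2-13B6 lay above D2, D2 above B6, and B6 above B6-13D2, with no overlap. Region 33 rose by 1.30 ± 0.18 in D2-13B6 against B6 (log2, SE, edgeR adjusted p = 6.14e-09) and by 0.75 ± 0.21 in D2 against B6-13D2 (adjusted p = 0.0061), and fell by 0.86 on the log2 scale in D2 against D2-13B6 (adjusted p = 6.23e-05). The D2 against B6-13D2 call was lost without B6-13D2 replicate 1 (0.56, adjusted p = 0.212). D2 against B6 gave 0.44 ± 0.18 (adjusted p = 0.069), and was called in a fit of only the libraries compared (0.44, adjusted p = 0.0090) and without D2-13B6 replicate 2 (0.44, adjusted p = 0.0174), D2-13B6 replicate 3 (0.44, adjusted p = 0.024) or D2 replicate 3 (0.54, adjusted p = 0.0498).

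**Figure D2:**
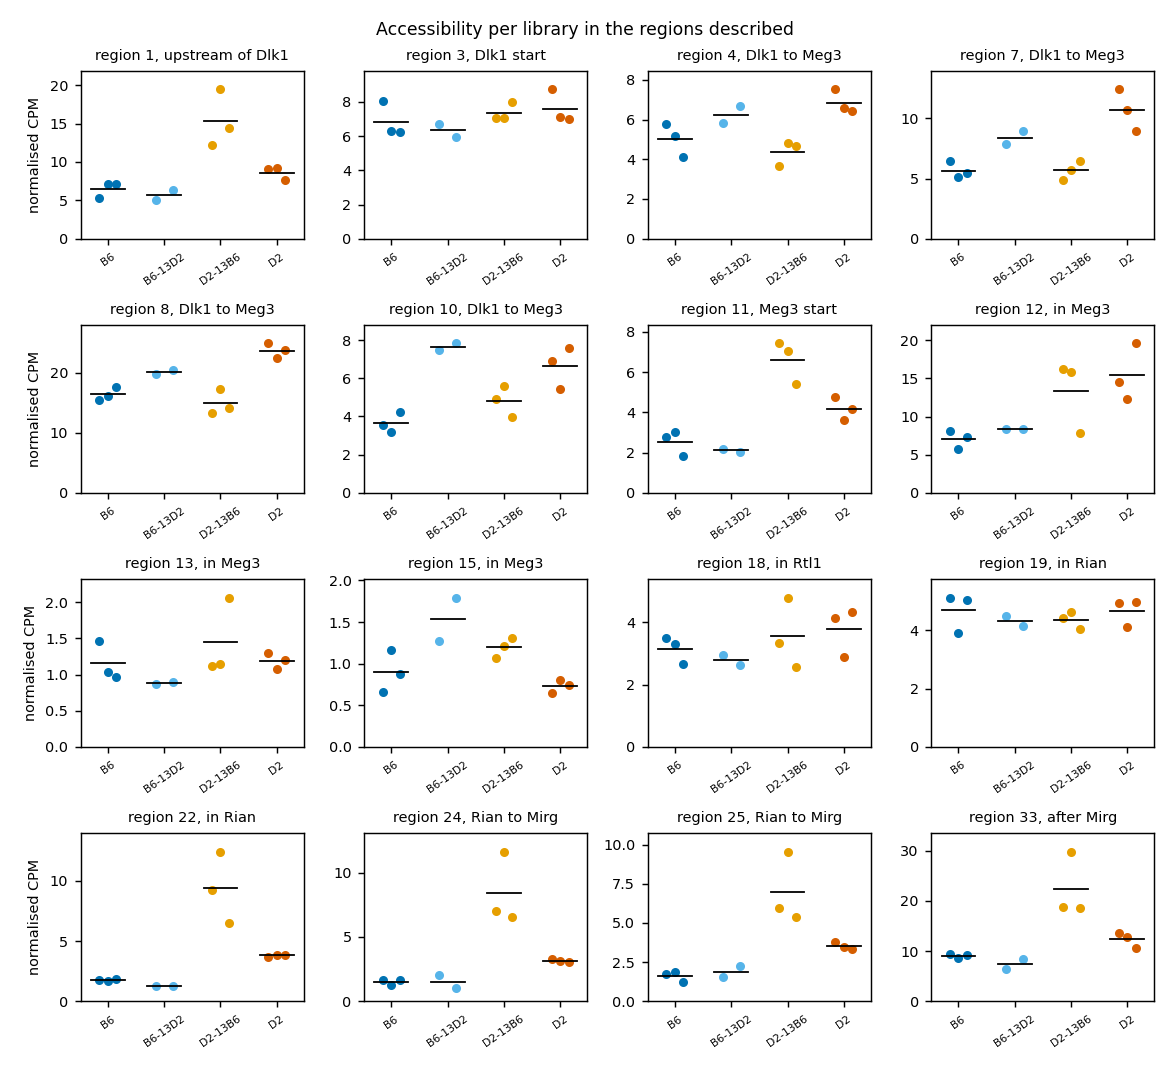
Normalised CPM of each library (points) in the 16 regions described, by line, with the mean of each line as a bar; each vertical axis starts at 0. In regions 22, 24, 25 and 33 the D2-13B6 libraries lie above all others, and in regions 4, 7 and 8 the D2 libraries lie above those of B6 and D2-13B6.

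The 18 regions not described singly had line means of 0.420 to 6.03 normalised CPM. Their pairwise log2 fold changes ran from −0.65 to 0.79, and none of the 18 was called in the 5 pairwise comparisons. In all, 12 of the 34 regions were called in at least 1 of those comparisons and 22 in none. The share was 35.3% of the members against 49.6% of all tested regions.

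Counted over the domain, D2-13B6 against B6 gave 7 regions called, all higher (regions 1, 11, 12, 22, 24, 25 and 33), where 41.7% of all tested regions were called and 21.6% were called higher and 20.1% lower. The share of members called, and their share called higher, was near or below those of all regions. The median log2 fold change was 0.18 over the members and −0.13 over all tested regions. With total counts in place of TMM, 11 members were called, 7 higher and 4 lower, and the median of all regions shifted to −0.43. The shares of all regions called under total counts were not taken, and those above are for TMM. In the 299 tested regions within 1000000 bp on either side of the window, 41.5% were called, 48 higher and 76 lower. Leaving out replicate 2 of D2-13B6, which was the highest library of its line in 5 of the 7 regions, also gave 7 calls.

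D2 against B6 gave 8 regions called, all higher (regions 7, 8, 10, 11, 12, 22, 24 and 25), where 22.5% of all tested regions were called and 13.7% were called higher and 8.8% lower. In the flanks 16.1% were called, 29 higher and 19 lower. The members' median log2 fold change was 0.26 and that of all regions −0.01. Counts from D2 DNA were mapped to a build derived from C57BL/6J, and the part of mapping in this and in the other comparisons between backgrounds was not tested.

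D2 against D2-13B6, which differ in the interval on the D2 background, gave 9 regions called (3 higher, 6 lower), where 23.7% of all tested regions were called (8.53% higher, 15.2% lower). The 3 higher regions (4, 7 and 8) all lie between Dlk1 and Meg3, upstream of region 10, and the 6 lower ones (1, 11, 22, 24, 25 and 33) were 6 of the 7 that rose in D2-13B6 against B6. These 2 comparisons share the D2-13B6 libraries. D2 against B6-13D2, the comparison of backgrounds with the D2 interval in both, gave 8 regions called (7 higher, 1 lower), where 18.8% of all tested regions were called (11.6% higher, 7.24% lower). It shares the D2 libraries with D2 against B6. The count was 5 without B6-13D2 replicate 1 and 4 without B6-13D2 replicate 2.

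**Figure D3:**
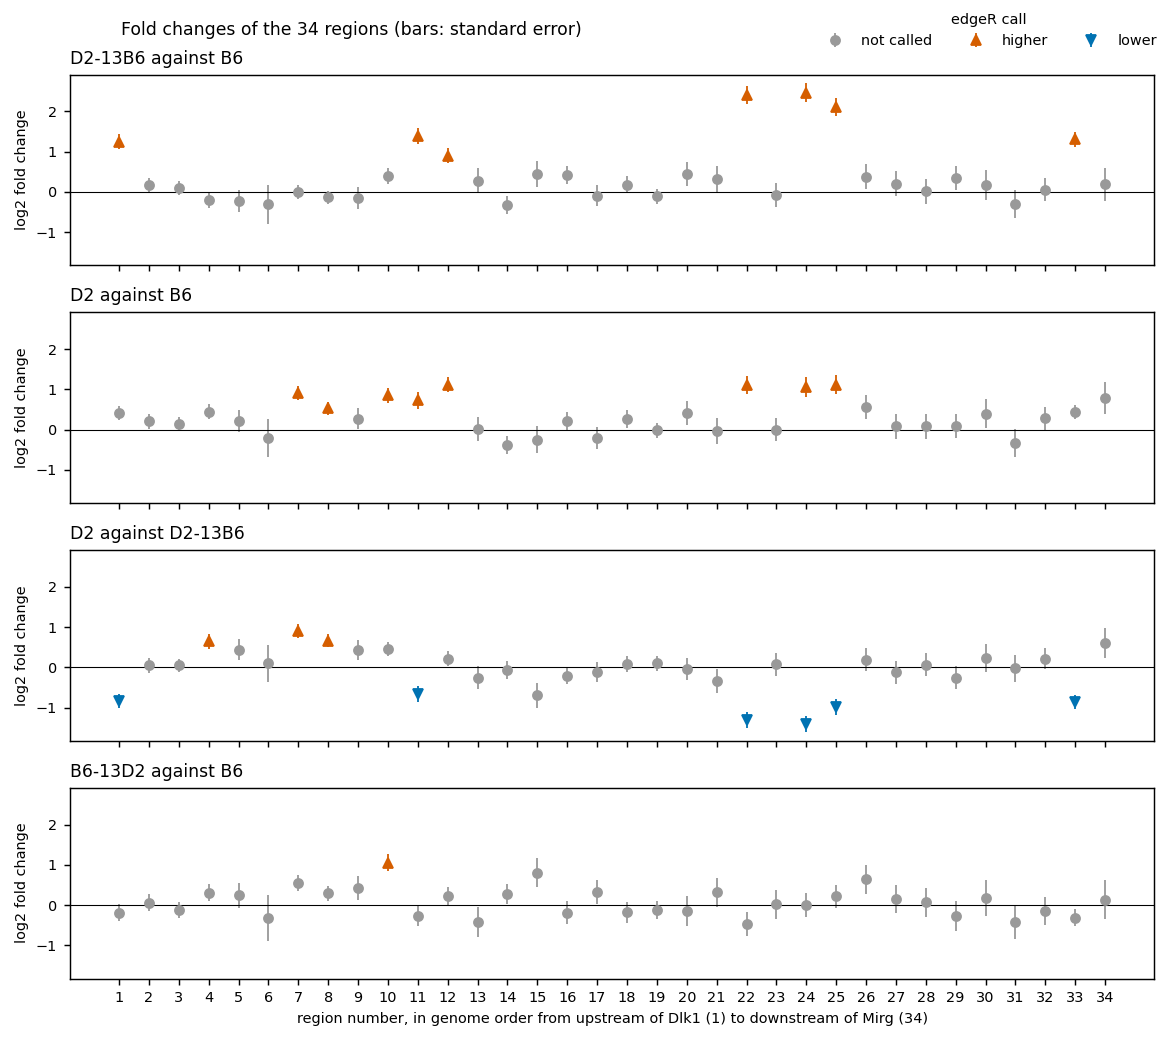
Log2 fold change of each of the 34 regions in 4 comparisons, fitted by edgeR (points; bars are the standard error), with called regions as triangles. The 7 called regions of D2-13B6 against B6 all point up, while D2 against D2-13B6 has 3 regions up (4, 7 and 8) and 6 down.

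The exchange of the interval was compared in both backgrounds. B6-13D2 against B6, the exchange on the B6 background, gave 1 region called (region 10, higher), where 0.474% of all tested regions were called (0.139% higher, 0.335% lower). At an unadjusted edgeR p below 0.05, 3 members were higher and none lower. The share of all regions at that threshold was not taken, so these 3 cannot be read as a shift of the domain. DESeq2 called 1 member. None of the 299 tested flanking regions was called by edgeR. Region 10 was not called without B6-13D2 replicate 1 (1.09, adjusted p = 0.0629) or without replicate 2 (1.02, adjusted p = 0.113), each of which leaves that line 1 library whose spread is taken from the other lines.

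The difference between the 2 exchanges, (B6-13D2 minus B6) minus (D2 minus D2-13B6), was tested as an interaction and called 3 regions, all higher (regions 15, 24 and 25), where 6.54% of all tested regions were called (4.55% higher, 1.99% lower). For region 24 the exchange gave a log2 fold change of −0.00 ± 0.31 on the B6 background and −1.41 ± 0.20 on the D2 background, and the interaction was 1.4 ± 0.37 (SE, edgeR adjusted p = 0.0134). For region 25 it gave 0.22 and −0.99, and the interaction was 1.21 ± 0.35 (adjusted p = 0.027). For region 15 it gave 0.81 and −0.70, neither called, and the interaction was 1.5 ± 0.48 (adjusted p = 0.0442). Without replicate 2 of D2-13B6 no interaction was called at the threshold, and the values were 1.10 for region 24 (adjusted p = 0.055), 0.91 for region 25 (adjusted p = 0.106) and 1.49 for region 15 (adjusted p = 0.0691). The region 24 call was also lost without B6-13D2 replicate 1 (0.81, adjusted p = 0.41). The region 25 call was lost as well without B6 replicate 3, B6-13D2 replicate 2 or D2 replicate 3 (0.92 to 1.17), with a replicate block (1.03, adjusted p = 0.0547) and under total counts (1.00, adjusted p = 0.0541). The region 15 call was lost under total counts (1.33, adjusted p = 0.0974) and without any of B6 replicates 1 and 3, either B6-13D2 library or any D2 library (1.24 to 1.73). For regions 7, 8 and 10 the exchanges had the same sign in both backgrounds, with values of 0.56 and 0.91, 0.29 and 0.67, and 1.05 and 0.46, and the interaction was not called (adjusted p = 0.48, 0.41 and 0.20). Under total counts the interaction of region 8 was called, at −0.55 (adjusted p = 0.0421). A shared sign was not particular to these regions. Regions 4 (0.31 and 0.65) and 9 (0.43 and 0.42) were positive in both backgrounds. Regions 1 (−0.19 and −0.83), 11 (−0.26 and −0.66), 22 (−0.46 and −1.31) and 33 (−0.31 and −0.86) were negative in both. The interaction was called in none of them.

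**Figure D4:**
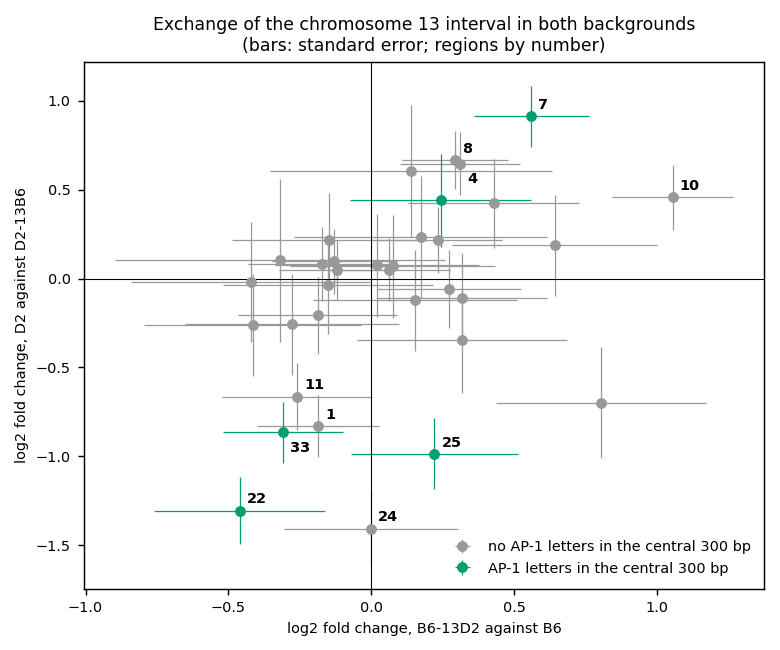
Log2 fold change of the 34 regions for B6-13D2 against B6 (horizontal) and D2 against D2-13B6 (vertical), which share no library; bars are standard errors and green points hold TGANTCA in the central 300 bp. Regions 4, 7, 8 and 10 are among those at the upper right. Regions 1, 11, 22, 24, 25 and 33, called lower in D2 against D2-13B6, lie low with horizontal values from −0.46 to 0.22.

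Motif letters were counted in the central 300 bp of each region on both strands, as a description. TGANTCA was in 5 of 34 members (14.7%; all regions 13.7%), TGACGT in 5 (14.7%; all regions 3.48%), AGGNGGC in 10 (29.4%; all regions 23.3%) and TGCCGC in 3 (8.82%; all regions 5.84%). In RefSeq promoters of 300 bases the shares were 7.81%, 7.51%, 29.3% and 11.6% in the same order of motifs. The 8 letters TGACGTCA, which region 24 shares with the Meg3 promoter, count as a match of TGACGT on each strand. Of the 7 regions called higher in D2-13B6 against B6, regions 22, 25 and 33 held TGANTCA in the central window and regions 1, 11, 12 and 24 did not. Region 24 held 1 match outside that window. The other members with TGANTCA in the central window, regions 5 and 7, were not called in that comparison. Over the whole table, regions with TGANTCA were called higher in D2-13B6 against B6 in 49.9% of 33897 cases and those without it in 17.1% of 212943, with median log2 fold changes of 0.62 and −0.19. The same shares were 34.6% and 10.4% in D2 against B6 and 0.148% and 0.137% in B6-13D2 against B6. The other motifs also had higher shares with than without them in D2-13B6 against B6. These were 30.8% and 21.3% for TGACGT, 29.5% and 21.2% for TGCCGC, and 22.5% and 21.4% for AGGNGGC.

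Marker promoters of cell types were read in the same fit. In D2-13B6 against B6, where 21.6% of all tested regions were called higher and 20.1% lower, 8 of the 10 ES cell markers fell and 1 rose, and their summed accessibility was 240 to 280 normalised CPM in D2-13B6, 379 to 389 in B6, 377 to 397 in B6-13D2 and 345 to 378 in D2. Of the 8 fibroblast markers, which would report feeder cells, 6 had a region within 1000 bp of a start and Col3a1 and Lum had none. In D2-13B6 against B6, 3 of the 6 rose, and their summed accessibility was 93.9 to 124 in D2-13B6, 53.4 to 57.9 in B6, 46.9 to 53.8 in B6-13D2 and 62.4 to 70.5 in D2. Primitive endoderm markers (6 of 6 with a region, 2 higher and 2 lower) summed to 112 to 143 in D2-13B6 and 112 to 118 in B6, and trophoblast markers (5 of 5, 1 lower) to 67.2 to 83.5 and 105 to 110. No marker with a region was at 0 counts in any library. The part of these levels in the values of D2-13B6 in the domain was not tested, and fewer cells with an open region cannot be told apart from less opening per cell.

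Promoters of 16 genes whose products act on this control region or on germline imprints were read in the same fit. In D2-13B6 against B6, 9 rose and 2 fell, beside 21.6% and 20.1% of all tested regions (Dppa3, a maternal factor that protects imprints, and Tet1, a methylcytosine dioxygenase). In D2 against B6, 6 rose and none fell, beside 13.7% and 8.8% of all tested regions. They were Ezh2, the polycomb methyltransferase, at 0.69 ± 0.17 (log2, SE, edgeR adjusted p = 0.00168), Tet2 at 0.58 ± 0.17 (adjusted p = 0.00855), Ctcf at 0.52 ± 0.17 (adjusted p = 0.0204), Zfp57 at 0.50 ± 0.17 (adjusted p = 0.0246), Jarid2 at 0.49 ± 0.17 (adjusted p = 0.0269) and Dnmt1, the maintenance methyltransferase, at 0.45 ± 0.17 (adjusted p = 0.0391). In D2 against B6-13D2, 3 rose (Ezh2, Dnmt1 and Ctcf) and none fell, beside 11.6% and 7.24% of all tested regions. Zfp57 (0.40, adjusted p = 0.153), Tet2 (0.35, adjusted p = 0.221) and Jarid2 (0.29, adjusted p = 0.309) were not called there. In B6-13D2 against B6 none of the 16 was called, beside 0.474% of all tested regions, so this count says little. In D2 against D2-13B6 only Tet1 was called, higher at 0.58, beside 8.53% of all tested regions called higher and 15.2% lower. The list's median log2 fold change was 0.41 in D2 against B6 and 0.47 in D2-13B6 against B6.

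Promoters whose pattern over the 11 libraries was most like region 12 of Meg3, among 14415 compared by Pearson's r of log2 CPM, were those of Ndfip2 (0.991), Ak6 (0.989), Ssx2ip (0.987), Tigd2 (0.985) and Ggh (0.983). For region 3 of Dlk1 they were Tmc3 (0.892), Zfp641 (0.886), Scarf1 (0.858), Slc25a48 (0.853) and Aqp5 (0.851). The libraries of a line share their cells, so these values describe the 11 libraries and carry no test.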

How the data were processed

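ATAC-seq gave 11 libraries from 4 lines of mouse ES cells. The authors deposited 1 table of read counts per region, unnormalised, over 248336 regions shared by all libraries; per the file headers the counted alignments had duplicates and mitochondrial reads removed. Per the submitters' processing notes, which give no roles, the build was mm10 and the tools were Trimmomatic 0.39, BWA 0.7.5, Picard 2.0.1, MACS 1.4.2, bedtools 2.9.2 and edgeR 3.34.1. Whether the table counts start positions from 0 or 1 is not given in the sources used here; coordinates are printed as listed.

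From these counts, edgeR 4.0.16 (filterByExpr by line, TMM, trended dispersion, robust quasi-likelihood F test) fitted all 11 libraries with 1 coefficient per line and no replicate block. In each of 6 comparisons the Benjamini-Hochberg adjustment covered 246840 regions, and a region was called at an adjusted p below 0.05. DESeq2 1.42.0 and the other settings were alternatives. Sequences were read from GRCm38 with pysam 0.24.0 and annotated with GENCODE M21 and RefSeq.

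Regions described singly were those within 1000 bp of a start of Dlk1, Meg3, Rtl1, Rian or Mirg, the one with the highest mean normalised CPM in each segment, and in each comparison up to 3 called in each direction with the smallest p. The members, lists and tests were chosen with earlier results of these data known, so they are no independent support. Values are means with SD over libraries, fold changes are log2 with SE, and both cover the spread between technical libraries and counting error only. Within a line, libraries differed by 2.06 to 6.33 times the sampling noise (chi-square per degree of freedom), so none was counted as a copy. The values were 2.06 to 2.27 in B6, 2.11 in B6-13D2, 2.98 to 4.12 in D2 and 4.54 to 6.33 in D2-13B6. The fit shares its estimate of the spread between these lines, although D2-13B6 varied most.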

Additional observations from a re-analysis of the deposited data

Results flagged for a closer look

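In 3 regions the effect of exchanging the interval differed between the B6 and the D2 background by the interaction test of edgeR (adjusted p below 0.05), where 6.54% of all tested regions were called, so 3 of 34 is near the background. The interaction was 1.5 on the log2 scale for region 15 in Meg3 (SE 0.48, adjusted p = 0.0442), 1.4 for region 24 between Rian and Mirg (SE 0.37, adjusted p = 0.0134) and 1.21 for region 25 beside it (SE 0.35, adjusted p = 0.027). Each was lost when replicate 2 of D2-13B6, the library with the lowest TMM factor (0.769), was left out, and also under other alternatives. Counting all alternatives, the call was lost under 10 of 17 for region 15, 3 of 18 for region 24 and 7 of 18 for region 25. No test was run for a library far from the others of its line.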

How the results depend on the processing

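The 16 regions described in 6 comparisons gave 96 log2 fold changes, 36 of them called. None of the 36 changed sign under any alternative run, 11 were called under every one and 25 were lost under at least 1; of the 60 not called, 10 were called under at least 1. Testing against a minimum fold of 1.5 left 2 members called in D2 against B6, 0 in B6-13D2 against B6, 2 in D2 against D2-13B6, 6 in D2-13B6 against B6, 1 in D2 against B6-13D2 and 0 for the interaction, a setting that asks for a larger change by construction. Total counts gave 11 calls in D2-13B6 against B6 and 1 higher and 1 lower for the interaction. The cause was not tested. The shares of all regions called were not taken under any alternative, including those that leave out a library. Median-of-ratios size factors, TMM from regions off chromosomes 11 and 13, no filter and a fit of only the libraries compared kept every count within 1.5 times. DESeq2 called 8, 1, 9, 7, 7 and 2 members in the order of comparisons D2 against B6, B6-13D2 against B6, D2 against D2-13B6, D2-13B6 against B6, D2 against B6-13D2 and interaction; it gave no adjusted p for 2 of the 96 values, 1 of them the interaction of region 15.

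Leaving out each library in turn gave 6 to 11 calls in D2 against B6, 0 to 1 in B6-13D2 against B6, 8 to 10 in D2 against D2-13B6, 7 to 8 in D2-13B6 against B6, 4 to 9 in D2 against B6-13D2 and 0 to 4 for the interaction. Deviations of same-numbered libraries of different lines had r from −0.049 to 0.068 (15 pairs, median 0.027). The 30 other pairs had −0.148 to 0.162 (median −0.015). Deviations from a mean of 2 or 3 libraries are tied to each other, so these values do not settle whether the numbers pair libraries. With the number as a replicate block the counts were 8, 1, 10, 7, 8 and 2 in the order above. Counts of a member in a library ran from 5 to 984, and in D2 against B6 the standard error was 0.47 for region 6, with the lowest mean level, against 0.16 for region 8, so smaller differences could be called in the regions with more counts.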
